A study of Mus musculus with 5 samples.

Results

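Translation initiation and elongation factors were compared between NIH3T3 cells and NIH3T3 cells carrying an ERBB2 transgene. Members were all genes whose symbol starts with Eif or Eef followed by a digit, taken from probes that the platform annotation assigns to exactly 1 symbol. This gave 53 probes of 49 genes, out of 20205 probes and 9669 genes with their own symbol. Another 6 probes with such a symbol carried several symbols and were left out. NIH3T3 is an immortalised mouse fibroblast line, and the second line is NIH3T3 that constitutively overexpresses the human receptor tyrosine kinase HER-2/NEU (ERBB2) from a cytomegalovirus promoter. Both lines grew in DMEM with fetal calf serum, and no further treatment is named. Their cDNA was hybridised together on 5 spotted 2-colour arrays, 3 from preparation A (A1, A2 and A3) and 2 from preparation B (B1 and B2). The Erbb2-transfected cDNA carried Cy3 on A1, A2 and B1 and Cy5 on A3 and B2. Whether the transfected line is a clone, and whether the preparations are separate cultures, is not stated. The p-values thus measure only the spread between these preparations, which may be technical. The test pools that spread over all features, so a gene's own spread counts for little in its p-value.

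Initiation begins when eIF2, bound to GTP, carries the initiator tRNA to the small ribosomal subunit, while eIF1, eIF1A and eIF3 prepare that subunit for scanning. The cap-binding complex eIF4F (eIF4E, eIF4G and the helicase eIF4A) brings the mRNA, and 4E-BP proteins compete with eIF4G for eIF4E until mTOR phosphorylates them. Elongation then uses eEF1 to deliver aminoacyl-tRNA and eEF2 to move the ribosome along. Receptor tyrosine kinases such as ERBB2 are known to act on these factors largely through phosphorylation, which a cDNA array does not measure.

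Each value below is the log2 ratio of a gene's signal in Erbb2-transfected cells to that in NIH3T3, so that 0 stands for equal signal. Means are over the preparations, given as mean ± SD (n = 2). The direction is likely and not settled, because it takes the deposited values to be Cy5 over Cy3. Under the opposite reading every sign turns. Ratios give no level in either line, and fewer cells and less RNA per cell cannot be told apart. No probe annotated to Erbb2 was found, so the transgene was not analysed here. Arrays held 5368 to 17463 values, and their turned ratios correlated across probes with r from 0.45 to 0.52 between arrays of the same dye orientation and from 0.17 to 0.54 between arrays of opposite orientation. Of the fibroblast markers, 3 of 7 tested genes were lower in the transfected line (Col1a1, Col1a2 and Fn1), where 4.54% of all features were. The other 4 were not called. The median of all 7 was -0.60, with 5 below 0 and 2 above, Col3a1 at 0.51 and Vim at 0.47. No marker of epithelium, endothelium or skeletal muscle was called among the 1 tested for each, and no leukocyte marker could be tested. Levels of these markers cannot be given from ratios, and their part in the results below was not tested.

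Most translation factors did not pass the test of a difference between the lines. Of the 49 genes, 48 had a value on some array and 24 had a value in both dye orientations of both preparations and were tested with limma. A single gene, Eif3h, was called lower at an adjusted p under 0.05, and 0 were called higher. Eif3h encodes a subunit of eIF3, the large scaffold of the small ribosomal subunit during initiation. Over all 4892 features tested, 6.79% were called, 4.54% lower and 2.25% higher, against 4.17% of the tested translation factors. The members' share was thus near the background and says nothing particular about them. At an unadjusted p under 0.05 there were 5 of 24 members (20.8%), against 22.9% of all features. Of the tested members, 13 lay below 0 and 11 above, with a median of -0.04 against -0.02 over all features. Their median absolute ratio was 0.34, against 0.25 over all features, and 20 of 24 (83.3%) lay within 0.5 of 0, against 79.6%. The SD between preparations had a median of 0.15 in members and 0.21 in all features.

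**Figure D1:**
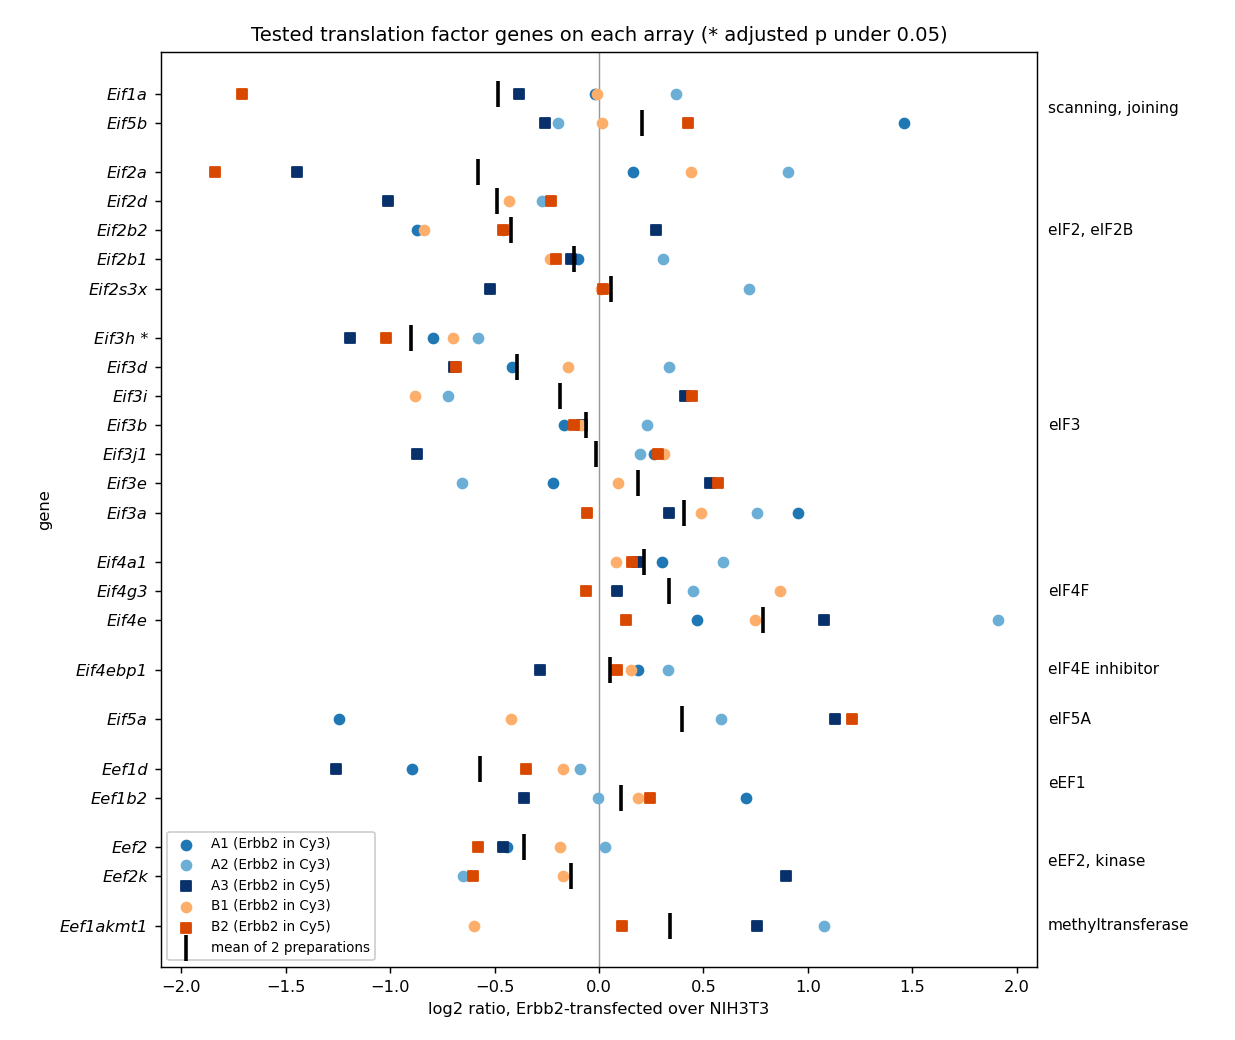
Log2 ratio (horizontal axis, Erbb2-transfected over NIH3T3) of the 24 tested genes on each array, grouped by role. Circles are arrays with Erbb2 cDNA in Cy3, squares those with it in Cy5, blue is preparation A, orange is preparation B, and the black bar is the mean of the 2 preparations. Eif3h lies below 0 on all 5 arrays, between -1.19 and -0.58, and most other genes straddle 0.

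**Figure D2:**
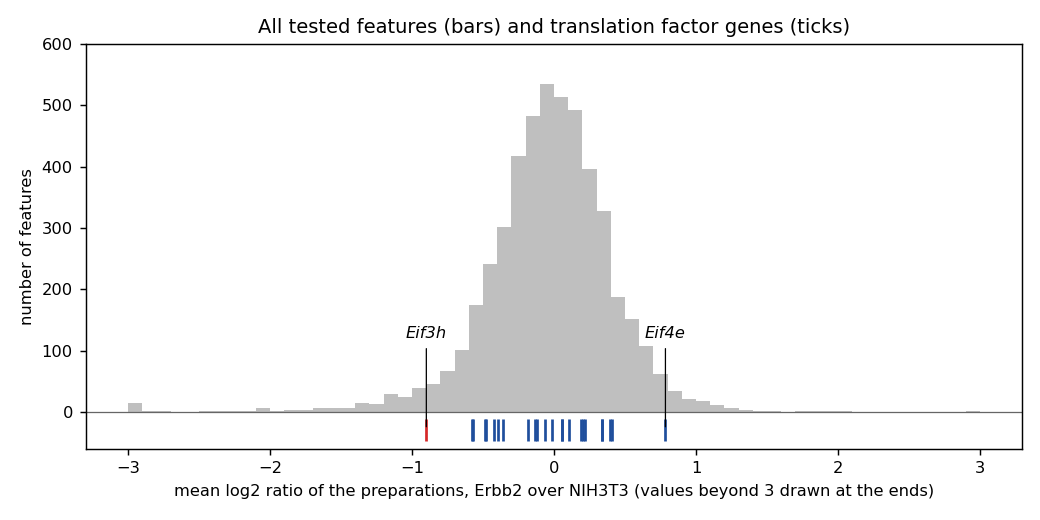
Number of features (vertical axis) by mean log2 ratio of the preparations for all 4892 tested features, with the 24 translation factor genes as ticks below (red for Eif3h, which was called). The ticks run from -0.90 for Eif3h (percentile 3.7 of all features) to 0.79 for Eif4e (percentile 97.7).

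Promoter sequence offers a property that the choice of members did not use. Windows from 250 bases before to 50 after the start were taken from RefSeq (GRCm38.p6), where 38 of the 49 genes had an entry. The letters CACGTG, an E-box that reads the same on both strands and is known as a binding sequence of MYC and related factors, occurred in 10 of these 38 genes (26.3%), against 8.09% of all 27025 genes in the table. The windows of the members were richer in G and C, with a median of 62.7% against 52.7%. Among the 7963 windows within the members' quartiles of GC content, 10.4% held CACGTG, against 24.5% of the members' own 49 windows. The members' windows were not limited to these quartiles, so the shares are not matched for GC content. A gene with several annotated starts also counts more than once among windows. A match is a description of letters and not of binding. The stretches of the 6 tested genes with the letters are shown because these genes carry several of the values below. CACGTG is in capitals, and brackets give the position of its first base relative to the annotated start. Eif5a has several annotated starts, so its stretches are placed from different starts, and the stretch at -74 also lies at -185 from another.
Eif4e (-228), chr3:138527028-138527057, plus strand: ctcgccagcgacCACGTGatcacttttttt
Eif4e (-64), chr3:138527192-138527221, plus strand: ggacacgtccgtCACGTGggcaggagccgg
Eif4a1 (-189), chr11:69672595-69672624, minus strand: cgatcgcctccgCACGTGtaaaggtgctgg
Eif3a (23), chr19:60790654-60790683, minus strand: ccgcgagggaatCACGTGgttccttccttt
Eif5a (-178), chr11:69920791-69920820, minus strand: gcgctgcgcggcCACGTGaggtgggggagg
Eif5a (-74), chr11:69921443-69921472, minus strand: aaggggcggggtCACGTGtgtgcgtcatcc
Eef2 (-43), chr10:81176576-81176605, plus strand: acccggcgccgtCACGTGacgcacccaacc
Eef2k (-31), chr7:120842788-120842817, plus strand: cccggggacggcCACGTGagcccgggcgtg
These 6 genes had a median ratio of 0.31, and the 11 tested genes whose windows lack the letters had a median of -0.06. None of the 6 passed the threshold, so the medians are a description only. Eef1aknmt, Eif1b, Eif3f and Eif3k also hold the letters and were not tested.

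A second property of translation factor genes is a start at C followed by pyrimidines, the 5′ terminal oligopyrimidine start through which mTOR is known to control the translation of such mRNAs. A start with C followed by at least 4 C or T was found in 2 of 38 members (5.26%), Eif2s3x and Eif3f, against 3.01% of all genes. Capitals in the stretches below mark the run from the annotated start on. In both stretches, C or T also stand directly before that start.
Eif2s3x, chrX:94212632-94212661, minus strand: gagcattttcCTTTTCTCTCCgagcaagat
Eif3f, chr7:108934405-108934434, plus strand: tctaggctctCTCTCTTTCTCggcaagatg
Annotated starts can be off by some bases, and a shifted start hides such a run. The letters TGATGNAA, a form of the element bound by ATF4, were found on either strand in 2 of 38 members (5.26%), Eef2k and Eif2s3x, against 4.51% of all genes.

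Among the genes of eIF4F, Eif4e had the highest ratio of all tested members without passing the threshold. Eif4e encodes the protein that binds the mRNA cap. Its ratios were 0.47 (A1), 1.91 (A2), 1.08 (A3), 0.75 (B1) and 0.13 (B2). It was above 0 on every array, highest on A2 and close to 0 on B2. The mean was 0.79 ± 0.49 (1.72-fold), with a 95% interval from 0.28 to 1.29 and an adjusted p of 0.064. The preparation means were 1.13 in A and 0.44 in B, a difference that was not called (adjusted p = 0.889 in limma on the 5 arrays). Eif4e counted as higher in 6 of 16 alternative settings at the level of genes, among them the 5 arrays fitted with a dye term and the preparation as a random block (0.83, adjusted p = 0.0411) and without A1 (0.97, adjusted p = 0.0078).

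Eif4e rests on 2 probes that did not give the same picture. Probe 6954 had a value on every array, 0.47 (A1), 1.98 (A2), 1.08 (A3), 1.29 (B1) and 0.58 (B2). Probe 2302 was high on A2 (1.84) and low on B1 (0.20) and B2 (-0.32). The probes were close on A2 and apart on both arrays of preparation B. Tested as its own feature, probe 6954 was called higher at 1.04 (adjusted p = 0.0015), whereas the mean of both probes was not called.

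The helicase gene Eif4a1 was also above 0 on every array, by less. Its ratios were 0.30 (A1), 0.59 (A2), 0.18 (A3), 0.08 (B1) and 0.16 (B2). The mean was 0.22 ± 0.14 (adjusted p = 0.575). Eif4g3, one of the scaffold genes, had a mean of 0.34 ± 0.09 (adjusted p = 0.362) from 2 probes, neither of which covered both orientations of both preparations. All 3 tested genes of the complex thus lay above 0, with a median of 0.34, and none passed the threshold. Eif4a2, close in sequence to Eif4a1, had 0.56 and 0.52 on the arrays of preparation B, and cDNA probes may not separate these genes. Eif4a3, the helicase of the exon junction complex, had 0.31 and 0.20 on the same arrays. Eif4b, a helper of the helicase, ranged from -0.89 to -0.11 on 2 arrays. Eif4e2, a cap-binding protein that does not recruit eIF4G, ranged from -0.22 to 0.75 on 4 arrays. Eif4g2, a scaffold that does not bind eIF4E, was below 0 on its 3 arrays, from -0.64 to -0.19. Eif4g1 was not analysed here.

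The mRNA of the eIF4E inhibitor 4E-BP1 showed no detectable difference. Eif4ebp1 had 0.19 (A1), 0.33 (A2), -0.28 (A3), 0.15 (B1) and 0.09 (B2). Only A3 lay below 0. The mean was 0.05 ± 0.09 (adjusted p = 0.905), and the 95% interval from -0.39 to 0.50 covers changes of that size in either direction. Eif4ebp2, a related inhibitor, had 0.35 on B1 alone.

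Eif3h was called lower in the Erbb2-transfected cells than in NIH3T3, under the reading of the dyes used here. Its ratios were -0.79 (A1), -0.58 (A2), -1.19 (A3), -0.70 (B1) and -1.02 (B2). Every array lay below 0, the arrays with Erbb2 cDNA in Cy5 lower than those with it in Cy3. The mean was -0.90 ± 0.06, which is 1.87-fold lower, with a 95% interval from -1.35 to -0.45 and an adjusted p of 0.023. It held place 181 from the lowest among the 4892 features. The call was lost in 6 of 17 alternative settings. These were scaling the arrays to equal spread (-0.92, adjusted p = 0.061), quantile normalization (-0.92, adjusted p = 0.0518), testing all features with a value in each preparation (-0.90, adjusted p = 0.115), and leaving out A3 (-0.77, adjusted p = 0.172), B1 (-0.98, adjusted p = 0.0782) or B2 (-0.82, adjusted p = 0.0715). The ratio itself stayed between -0.98 and -0.77.

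None of the other 6 tested eIF3 genes passed the threshold. Of the 7 tested eIF3 genes, 5 lay below 0 and 2 above, with a median of -0.06. Eif3h was the lowest of them on 3 of 5 arrays. Eif3i was lower than Eif3h on A2 (-0.72) and B1 (-0.88), and Eif3e was on A2 (-0.66). Eif3a, the largest subunit of the complex, had 0.95 (A1), 0.76 (A2), 0.33 (A3), 0.49 (B1) and -0.06 (B2). It was among the 3 highest tested members at 0.41 ± 0.27, without passing the threshold (adjusted p = 0.284). Eif3d, which can itself contact the cap, was at -0.39 ± 0.04. Eif3i was at -0.19 ± 0.04, Eif3b at -0.06 ± 0.06, Eif3j1 at -0.01 ± 0.44 and Eif3e at 0.19 ± 0.20. These subunits share 1 complex, yet their ratios spanned from that of Eif3h to that of Eif3a. Eif3f ranged from -0.48 to 0.98 on 3 arrays, Eif3l from -0.48 to 0.04 on 4 and Eif3m from -1.14 to 0.47 on 3. Eif3k was above 0 on its 4 arrays, from 0.08 to 0.70. Eif3j1 has a near copy in the mouse genome, so its probe may report more than this gene.

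**Figure D3:**
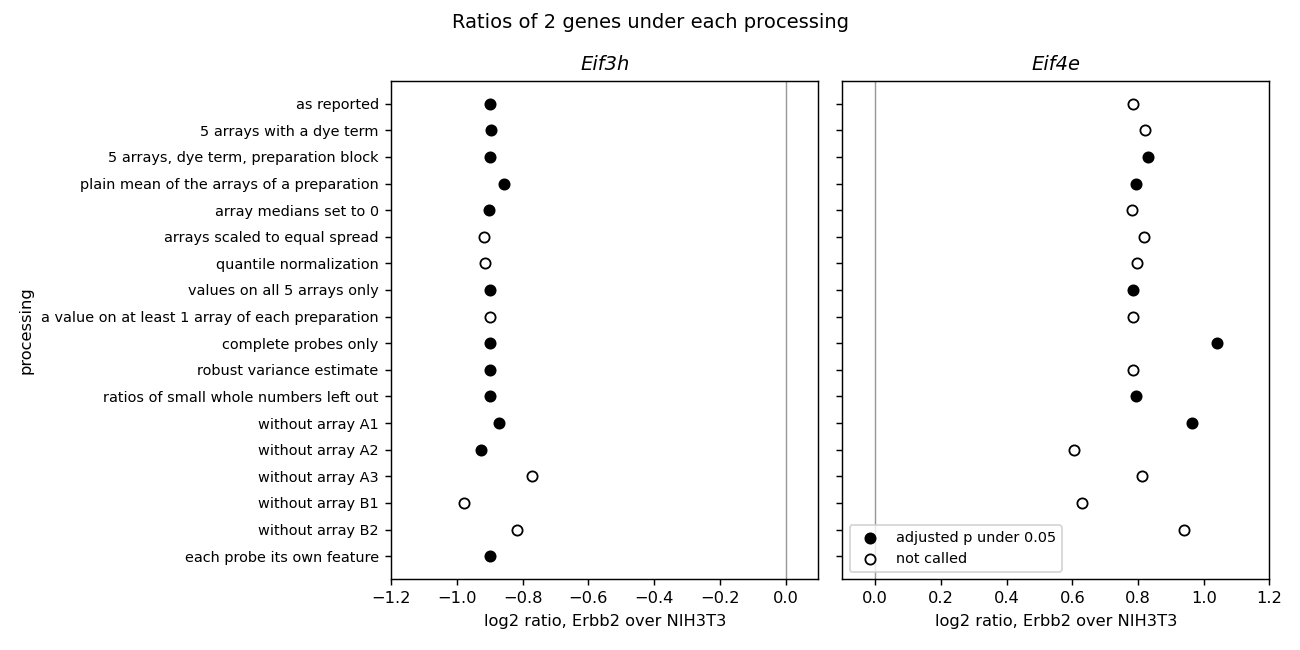
Log2 ratio of Eif3h (left) and Eif4e (right) under the reported processing and each alternative, with filled points where the adjusted p was under 0.05 and open points where it was not. Eif3h stayed between -0.98 and -0.77 and Eif4e between 0.60 and 1.04 while the calls came and went.

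The genes of eIF2, its exchange factor eIF2B and the related tRNA carriers leaned below 0 without a call. Of 5 tested genes, 4 lay below 0, with a median of -0.42. Eif2a, which despite its name is not a subunit of eIF2 but a separate carrier of initiator tRNA, had 0.16 (A1), 0.90 (A2), -1.45 (A3), 0.44 (B1) and -1.84 (B2). It was above 0 on every array with Erbb2 cDNA in Cy3 and far below 0 on those with it in Cy5. Its mean was -0.58 ± 0.17 (adjusted p = 0.125), and this gene is the only member with a called dye effect, given below. Without B1, where preparation B keeps only the Cy5 orientation, Eif2a was called lower (-1.15, adjusted p = 0.0242). Without either Cy5 array its mean was near 0, at -0.08 without A3 (adjusted p = 0.942) and -0.0094 without B2 (adjusted p = 0.992). Eif2d, also a separate tRNA carrier, had -0.27 (A2), -1.01 (A3), -0.43 (B1) and -0.23 (B2). It was below 0 on its 4 arrays, at a mean of -0.49 ± 0.22 (adjusted p = 0.193). Eif2b2 and Eif2b1, subunits of the exchange factor that reloads eIF2 with GTP, were at -0.42 ± 0.32 and -0.12 ± 0.14. Eif2s3x, the X-linked gene of the eIF2 subunit that binds GTP, was at 0.06 ± 0.06. It has a Y-linked relative that a cDNA probe may not separate. Eif2s2, which encodes another eIF2 subunit, ranged from -0.32 to 1.85 on 4 arrays. The exchange factor genes Eif2b3 (-0.14 to 0.76, 3 arrays), Eif2b4 (-0.78 to 0.01, 3 arrays) and Eif2b5 (-0.41 to 0.68, 2 arrays) were not tested. Eif2ak2, the gene of the kinase PKR that phosphorylates eIF2 in response to double-stranded RNA, is the member without a value on any array. Eif2s1 and Eif2ak3 were not analysed here.

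Among factors of scanning and subunit joining, no tested gene passed the threshold. Eif1a, whose product helps the small subunit scan, was at -0.48 ± 0.53, and Eif5b, the GTPase that joins the ribosomal subunits, at 0.20 ± 0.02. The Eif5b mean carries 1 high array, since A1 was at 1.46 and the other arrays between -0.26 and 0.43. Without A1 the mean was -0.00346. The Eif1a mean likewise carries B2, at -1.71 against -0.38 to 0.37 on the other arrays, and was -0.06 without B2 and -0.91 without B1. Eif5, the GTPase activating protein of eIF2, was above 0 on all 4 of its arrays, from 0.26 (B2) to 0.88 (A1). Both of its probes had values, and all 7 probe values lay above 0. The gene could not be tested because A3 held no value. With the weaker demand of a value in each preparation it stood at 0.70 (adjusted p = 0.21). In that setting preparation A held only arrays with Erbb2 cDNA in Cy3, so a dye effect would not cancel. B2, the only array of this gene with Erbb2 cDNA in Cy5, was the lowest. Eif1ax, close in sequence to Eif1a, ranged from -0.88 to 0.27 on 4 arrays. Eif1ad ranged from -0.63 to 0.01 and Eif1b, a relative of the start codon factor eIF1, from -0.67 to 0.27, each on 3 arrays. Eif6, which keeps the large subunit from joining early, had 0.02 and 0.17.

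Eif5a, the factor that carries the modified residue hypusine and helps stalled ribosomes form peptide bonds, gave opposite signs in the 2 dye orientations. It had -1.24 (A1), 0.59 (A2), 1.13 (A3), -0.42 (B1) and 1.21 (B2). Both arrays with Erbb2 cDNA in Cy5 lay above 1, and 2 of the 3 with it in Cy3 lay below 0. The preparation means nearly coincided, at 0.40 ± 0.005 (adjusted p = 0.274), although the arrays behind them were far apart. The mean was -0.0107 without B2 and 0.81 without B1. A small SD of preparations here does not mean that the arrays were alike.

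Of the elongation factors, Eef1d and Eef2 lay below 0 and neither passed the threshold. Eef1d, a subunit of the exchange factor that reloads eEF1A, had -0.90 (A1), -0.09 (A2), -1.26 (A3), -0.17 (B1) and -0.35 (B2). It was below 0 on every array, with A1 and A3 lower than the rest. Its mean was -0.57 ± 0.44 (adjusted p = 0.158). Eef1b2, another subunit of this exchange factor, was at 0.11 ± 0.16. Eef1a1, the gene of the tRNA carrier itself, had 0.17 on A2 and -0.34 on B1. Its close relative Eef1a2 had 0.20 on B1, and cDNA probes may not separate them. Eef1g, a further part of the exchange factor, ranged from -0.50 to 0.50 on 3 arrays.

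Eef2, the translocase, had -0.44 (A1), 0.03 (A2), -0.46 (A3), -0.19 (B1) and -0.58 (B2). It was below 0 on 4 of 5 arrays, at a mean of -0.36 ± 0.04 with a 95% interval from -0.80 to 0.09 (adjusted p = 0.329). Its 2 probes differed. Probe 6472 lay below 0 on every array, from -1.09 to -0.14, while probe 19306 was above 0 on A2, A3 and B1 and at -1.03 on B2. Tested as separate features they stood at -0.53 (adjusted p = 0.133) and -0.19 (adjusted p = 0.667). Eef2k, the kinase that inhibits eEF2, had -0.65 (A2), 0.89 (A3), -0.17 (B1) and -0.61 (B2), with only A3 above 0. Its mean was -0.13 ± 0.36 (adjusted p = 0.765), and it moved to -0.52 without A3 and to -0.02 without B2.

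**Figure D4:**
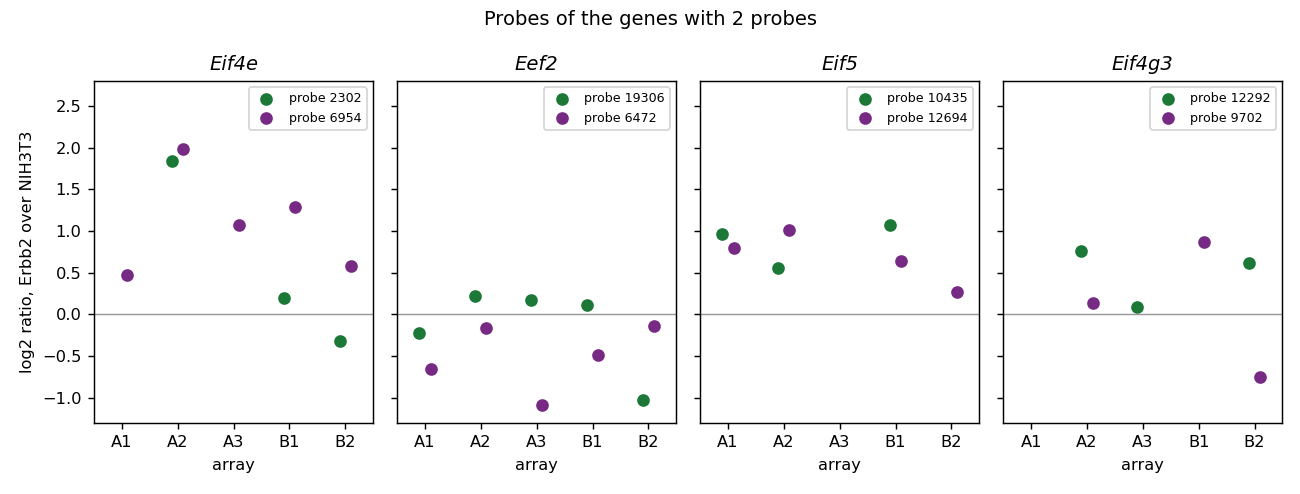
Log2 ratio (vertical axis, Erbb2-transfected over NIH3T3) on each array (horizontal axis) for both probes of the 4 genes with 2 probes. The probes of Eif5 all lie above 0, while those of Eif4e, Eef2 and Eif4g3 differ in sign on some arrays.

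The remaining members are methyltransferases named for the factor they modify, and are not factors themselves. Eef1akmt1 was at 0.34 ± 0.82, with 1.08 (A2), 0.76 (A3), -0.60 (B1) and 0.11 (B2). Its preparations lay further apart than those of any other tested member, and the difference had an unadjusted p of 0.0174. Eef1aknmt ranged from -0.94 to 0.06 and Eef2kmt from -0.33 to 0.51, each on 3 arrays.

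The exchange of dyes shows how far these ratios depend on the label. Over all features, 0.593% had a called dye effect, and 13.2% had an unadjusted p under 0.05. Of the tested members, Eif2a was called, with a dye coefficient of -1.05 (adjusted p = 0.0229), and 4 of 24 had an unadjusted p under 0.05. The coefficient is the distance of the turned ratio with Erbb2 cDNA in Cy5 from the midpoint of the orientations, and is negative where that orientation gave the lower ratio. Eif5a (0.77, unadjusted p = 0.00565, adjusted p = 0.175) and Eif3i (0.62, unadjusted p = 0.00944) had positive coefficients, and Eif1a (-0.52, unadjusted p = 0.0192) a negative one. Mean ratios of the orientations had the same sign in 14 of 24 members (58.3%), against 59.3% of all features. The median absolute coefficient was 0.26 in members and 0.19 in all features. Only 5 of 24 members had a single sign on every array with a value (20.8%, against 24.4% of all features), namely Eif3h, Eif4e, Eif4a1, Eef1d and Eif2d.

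**Figure D5:**
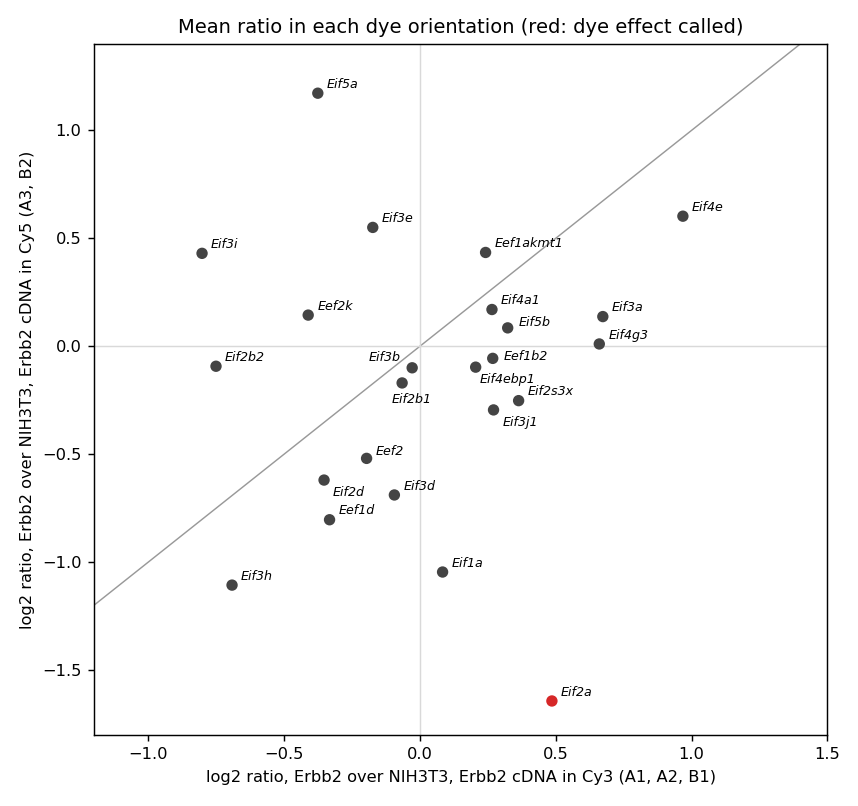
Mean log2 ratio of each tested gene with Erbb2 cDNA in Cy3 (horizontal axis) and in Cy5 (vertical axis), each averaged over the preparations, with the line of equal values. Eif2a, in red, had a called dye effect, and the 10 genes with opposite signs lie in the upper left and lower right fields.

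The preparations gave the same sign in 19 of 24 members (79.2%, against 65.4% of all features). No member differed between preparations at an adjusted p under 0.05 in limma on the 5 arrays, where 0.0204% of all features did. At an unadjusted p under 0.05 there was 1 member, Eef1akmt1, against 6.75% of all features. The median over tested members differed between arrays, from -0.20 on A3 to 0.27 on A2, while the median of all tested features lay between -0.04 and -0.00 on each array.

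Genes that act with these factors were measured on the same arrays. In mTOR and MNK signalling to translation, 1 of 6 tested genes was called higher, where 2.25% of all features were, and the median was 0.35 against -0.02 over all features. Akt1, a kinase upstream of mTOR, had 1.03 (A1), 1.19 (A2), 0.41 (A3), 1.05 (B1) and 0.54 (B2). All 5 arrays lay above 0, lower with Erbb2 cDNA in Cy5. The mean was 0.78 ± 0.02 (adjusted p = 0.045). That call was lost with arrays scaled to equal spread (adjusted p = 0.0864), under quantile normalization (0.0816), with a value in each preparation only (0.164), and without A3 (0.0851), B1 (0.37) or B2 (0.054). The lowest of the list was the ribosomal protein gene Rps6 at -0.08 ± 0.13. Mtor (0.66 ± 0.13, adjusted p = 0.084) and Rptor (0.41 ± 0.09, adjusted p = 0.255), the kinase and its scaffold, were picked out after their values were seen, and both lay above 0 on every array with a value.

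The other partner lists held no called gene. Of the initiation partners 7 were tested, with a median of -0.13, from Ppp1r15a, the phosphatase subunit that reverses eIF2 phosphorylation (-0.53 ± 0.62, adjusted p = 0.218), to the mRNA-binding protein gene Larp1 (0.16 ± 0.13). Of termination and rescue genes 2 were tested, the release factor gene Gspt1 at -0.07 ± 0.74 and the rescue factor gene Pelo at -0.37 ± 0.03. Of cytosolic aminoacyl-tRNA synthetases 7 were tested, 6 of them above 0, with a median of 0.11, from Eprs (-0.45 ± 0.40) to Rars (0.30 ± 0.39). Of mitochondrial translation factors 3 were tested, with a median of -0.15, from Tsfm (-0.20 ± 0.19) to Mrrf (0.16 ± 0.02).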

How the data were processed

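Per the labels, the authors extracted total RNA with RNeasy kits, labelled cDNA indirectly with Cy3 or Cy5, scanned the slides with a GenePix 4000A and GenePix Pro 3.0, subtracted the background from mean intensities and scaled each array to a median ratio of 1. The deposited values are log2 ratios, as the values show: on base 2, 16.5% to 49.8% per array matched a quotient of whole numbers up to a constant factor, against 1.58% to 1.79% after a shift and at most 2.85% on a natural logarithm. No source used here says why some values are empty.

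The ratios of A1, A2 and B1 were turned in sign. Probes of 1 symbol were averaged to a gene, and the other probes were kept as features (18151 in all). Each preparation's value was the mean of its 2 orientation means. Features measured in each orientation of each preparation (4892, of which 3134 were genes) were tested against 0 with lmFit and eBayes (limma 3.58.1, R 4.3.3; prior degrees of freedom 10.2) on the 2 preparation means, with Benjamini-Hochberg adjustment over all features and a threshold of 0.05. Dye and preparation effects came from limma on the 5 arrays with terms for line, dye and preparation. Arrays of a preparation may share more than these terms hold, so those p-values may be too small. Only 2 preparations limit the precision. The procedure was tested on simulated data.

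The members, lists, tests and alternatives were chosen with earlier results of these data known. Per-array values are given for members past the threshold, the 3 highest and lowest, those with the same sign on all 5 arrays and chosen factors of each role. Other tested members have mean and SD, untested ones their range, and each partner list its called, highest and lowest genes. Where the probes of a gene have values on different arrays, spread between arrays can in part be spread between probes. Alternatives changed the unit of replication, dye balance, centring, scaling, missing values, probe summary, variance estimate, dim spots, direction and arrays used. The values used held no intensities, so ratios of small whole numbers stood in for dim spots, which could not be checked. Plots used Python 3.11.15 with matplotlib 3.10.9.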

Additional observations from a re-analysis of the deposited data

Results flagged for a closer look

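Among the 30 translation factor genes with a value on 4 or 5 arrays, 4 had an array far from the others. The criterion sets apart about 1 of 20 genes by chance where arrays are independent, and these arrays share preparations and dye orientations, so 4 of 30 cannot be read against that rate. Eif3j1 stood at -0.87 on A3, while its other arrays lay between 0.20 and 0.31. Eif2b1 stood at 0.31 on A2 and Eif3b at 0.23 on A2, with all their other arrays below 0. The median over all tested members on A2 was 0.27, near both values, and its part in them was not tested. Eif5 stood at 0.26 on B2, below its other 3 arrays. B2 held a value of only 1 of its 2 probes, and that probe ranged from 0.64 to 1.02 on the other arrays. It is also the only array of this gene with Erbb2 cDNA in Cy5, and neither part was tested. Eif2a differed between the dye orientations, with a dye coefficient of -1.05 (adjusted p = 0.0229 in limma): all 3 arrays with Erbb2 cDNA in Cy3 lay above 0 and both arrays with it in Cy5 below 0.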

How the results depend on the processing

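No paired analysis was possible because both cell lines are already compared within each array, and the repetition numbers only count arrays within a preparation. The count of members called lower (1 as reported) became 0 with arrays scaled to equal spread, under quantile normalization, with a value on at least 1 array of each preparation and with values read as Cy3 over Cy5, and ranged from 0 to 1 when an array was left out (0 without A3 or B2, and Eif2a in place of Eif3h without B1). The count called higher (0 as reported) became 1 in 6 settings through Eif4e: the preparation as a random block, the plain mean of arrays, values on all 5 arrays only, complete probes only, ratios of small whole numbers left out, and each probe as its own feature. It became 1, through Eif3h, under Cy3 over Cy5, and ranged from 0 to 1 when an array was left out (Eif4e without A1). The count of members with a dye effect (1 as reported) became 0 with equal spread and ranged from 0 to 2 when an array was left out, with 2 without A2 (Eif2a and Eif5a) and 0 without A3, B1 or B2. The median of tested members lay between -0.09 and 0.05 over the settings that keep the direction, and 0 members differed between preparations with equal spread, complete probes only or any array left out. Signs turned for Eif3j1 under the plain mean (0.0798), equal spread (0.00363) and quantile normalization (0.0124), with a range from -0.0205 to 0.264 over left-out arrays (above 0 without A3). Over left-out arrays signs also turned for Eif3e (-0.0545 without A3, to 0.308), Eif3i (-0.518 to 0.147 without B1), Eif5a (-0.0107 without B2, to 0.807) and Eif5b (-0.00346 without A1, to 0.427). The cause was not tested, except that leaving out A3, B1 or B2 leaves a preparation short of a dye orientation, so that by construction a dye effect no longer cancels. Over all gene values and settings, 366 kept their direction and side of the threshold, 7 passed it newly, 6 lost it and 8 turned sign.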
